A study of Homo sapiens with 12 samples.

Results

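The genes described here are the 29 genes of cholesterol and fatty acid synthesis that are driven by the sterol regulatory element-binding proteins (SREBPs). They were chosen by name from the 57169 genes of the count table, as known enzymes and regulators of the pathway. Earlier results of these data were known when the list was made. A sterol branch of 21 genes and a fatty acid branch of 8 genes were kept apart, and all 29 passed the filter on low counts, among 16519 genes tested. RNA was measured in tumours grown as xenografts from SK-ES1, an established line of Ewing sarcoma, a bone and soft tissue tumour driven by the EWSR1-FLI1 fusion. The study compared 6 libraries labelled wild-type, called control 1 to 6 here, with 6 labelled as knock-down of RING1B, a ubiquitin ligase of Polycomb repressive complex 1, to ask what its loss does to the tumour transcriptome. All libraries came from this 1 cell line, and the labels name no silencing construct, no control construct, no host strain and no age or time of collection. Library titles carry numbers and letters with no stated meaning, so p-values reflect only how much these samples vary, and that variation may be technical. There were 8 title numbers, and 4 of them each stood on 2 libraries of the same group. Whether such libraries share an animal is not stated. They were tested as separate samples, which may count related libraries as independent.

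Cells make cholesterol from acetyl-CoA through mevalonate, isoprenoids and squalene, and make fatty acids from the same acetyl-CoA through malonyl-CoA. When sterols in the endoplasmic reticulum fall, SREBPs are carried to the Golgi, cut by a pair of proteases, and enter the nucleus, where SREBP-2 mainly switches on the sterol genes and SREBP-1 mainly the fatty acid genes. The binding sites for SREBPs usually lie beside sites for the factors NF-Y and Sp1, and tumours often run both branches at a high rate.

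Promoter letters are shown for 4 genes, with matches to motifs of the pathway marked. SREBF2 and HMGCS1 are classical SREBP targets. MSMO1 held the most NF-Y boxes of the 4 in the stretch shown, and PMVK, the gene with the highest fold change, held none. Each line gives the 150 bases before a RefSeq transcription start on GRCh38.p14, 5′ to 3′ on the strand of the gene, and the capitals mark the NF-Y box CCAAT, on either strand, and the sterol regulatory element core TCACNCCAC. HMGCS1 has a second RefSeq start, whose 150 bases held neither.
SREBF2 (chr22:41832955-41833104, plus strand): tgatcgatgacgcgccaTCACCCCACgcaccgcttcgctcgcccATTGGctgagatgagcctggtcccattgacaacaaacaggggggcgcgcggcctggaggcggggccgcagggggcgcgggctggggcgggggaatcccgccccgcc
HMGCS1 (chr5:43313413-43313562, minus strand): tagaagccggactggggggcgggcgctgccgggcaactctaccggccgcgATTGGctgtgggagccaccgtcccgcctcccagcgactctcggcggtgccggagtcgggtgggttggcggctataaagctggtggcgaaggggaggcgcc
MSMO1 (chr4:165327519-165327668, plus strand): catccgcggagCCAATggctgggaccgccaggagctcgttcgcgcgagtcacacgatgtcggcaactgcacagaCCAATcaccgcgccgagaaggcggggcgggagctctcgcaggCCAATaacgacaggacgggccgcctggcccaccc
PMVK (chr1:154936720-154936869, minus strand): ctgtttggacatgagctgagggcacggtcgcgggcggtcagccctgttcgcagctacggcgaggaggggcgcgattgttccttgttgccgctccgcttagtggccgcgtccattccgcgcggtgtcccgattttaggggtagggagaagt
Windows from 250 bases before to 50 after a start were found by symbol for 25 of the 29 genes and for 11017 of the genes tested. They were searched on both strands, a gene with several starts counting once if any window held the motif. CCAAT was found for 16 of 18 sterol genes (88.89%) and 4 of 7 fatty acid genes (57.14%), against 42.52% of the genes tested. The genes without it were PMVK, CYP51A1, SREBF1, ELOVL6 and FADS1, so its lack was not particular to PMVK. The Sp1 box GGGCGG was found for 24 of 25 genes (96%), against 76.05%. The 9-letter core TCACNCCAC was found in SREBF2 alone (4%, against 1.4%), and its shorter form CACNCCAC, which overlaps it and was added after the first search, for 6 of 25 (24%, against 7.76%). The E-box CACGTG was found for 3 of 25 (12%, against 12.62%). These matches describe letters in the windows and say nothing of binding in these tumours.

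RNF2, the gene of RING1B, was at 37.5, 49.2 and 57.9 CPM (counts scaled to a common library total, with TMM factors) as the lowest, median and highest control, and at 12.4, 18.4 and 23.4 in knock-down. The groups did not overlap, and RNF2 fell by 1.43 on the log2 scale (SE 0.174, edgeR adjusted p = 0.00347). Library totals ran from 23859184 to 26678325 counts, and 3 counts corresponded to 0.112 to 0.126 CPM. Of 8 Ewing sarcoma markers, CD99 had no count in any library, while the other 7 summed to 1795 to 2009 CPM in control and 1899 to 2165 in knock-down libraries. The handling of multi-mapping reads is not given, so the lack of counts for CD99 was not read as absence of its RNA. Host cells are not human, and how their reads were handled is not stated, so sums of human markers may miss them. Of 8 adipocyte markers 2 passed the filter, none was at 0 in every library, and their sum was 2.17 to 4.38 CPM in control and 2.73 to 7.75 in knock-down libraries. The sums were 5.75 to 19.2 and 5.46 to 23.5 CPM for 9 macrophage and leukocyte markers, 57.9 to 101.5 and 57.7 to 94.1 for 8 of endothelium, and 311 to 1145 and 242 to 1155 for 8 of fibroblasts and pericytes. None of these marker genes was called, and their part in the results was not tested. In bulk tumour RNA, fewer cells of a type and less RNA per cell cannot be told apart.

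Control 6 and knockdown 5 were the libraries of their groups in which these genes were most often lowest. Mitochondrially encoded genes took 14.45% of the counts of control 6 and 10.01% of those of knockdown 5, against 4.65% to 8.42% in the other libraries. Control 6 was the lowest control for 15 of the 29 genes and the highest for 5, and knockdown 5 was the lowest knock-down library for 13 and the highest for 4. Other libraries also held many extremes. Control 1 was the highest control for 13 genes. Knockdown 3 was the highest knock-down library for 11 and knockdown 2 for 10, and knockdown 6 was the lowest for 8. Knockdown 4 had the highest sum of 8 hypoxia markers, 507 CPM against 196 to 304 in control libraries. It is left out with control 6 and knockdown 5 in an alternative. For genes whose values moved by over 1.5 times without 1 of these libraries, the value without it, or the range over such fits, is given.

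Levels in control tumours ranged widely from enzyme to enzyme. Per length, taken over all annotated exons of a gene together, the highest level belonged to SQLE, the squalene epoxidase that makes the first oxygenated sterol precursor, at 531 ± 118 TPM (mean ± SD over 6 libraries; counts per length scaled to a common total, computed from the table's gene lengths). It was followed by SCD, the desaturase that makes oleate, at 504 ± 87.0 TPM, and by the fatty acid synthase FASN at 446 ± 154 TPM. These 3 means lay within each other's SD. ACLY, which makes cytosolic acetyl-CoA from citrate, was at 281 ± 52.2 TPM and the squalene synthase FDFT1 at 250 ± 68.3 TPM. The low end was held by SC5D at 18.1 ± 1.74, CYP51A1 at 9.98 ± 3.97 and HSD17B7 at 8.71 ± 0.985 TPM. The order depends on the length used, since for FDFT1 all exons together span 5202 bases and the longest transcript 2660, and for FADS1 10230 and 4525. Neighbouring genes in this order mostly differed by less than their SD, while the highest and lowest genes were far apart. The value of CYP51A1, the lanosterol demethylase, is uncertain because 79.35% of its exonic bases are shared on the same strand with 2 other annotated genes, AC000120.2 and AC000120.3. HSD17B7 has 2 named copies with 325 counts in all, and FDPS has 8 with 103. ACAT2 shares 52.27% of its exonic bases with genes on the opposite strand, TCP1 among them, and the strand setting of the counting is not given in the sources used here.

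**Figure D1:**
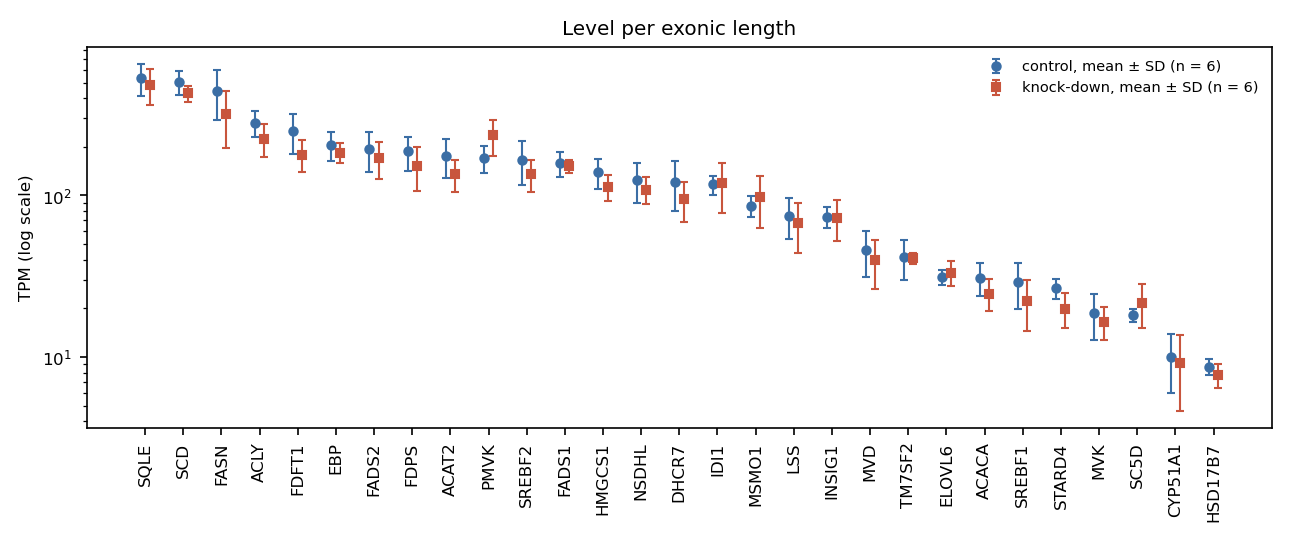
Level of the 29 genes in TPM, per length of all exons of a gene, on a log axis, in order of the control mean; circles are control and squares knock-down libraries, with bars of 1 SD over 6 libraries. SQLE, SCD and FASN lead at 531, 504 and 446 TPM in control, HSD17B7 is lowest at 8.71, and the bars of the groups overlap for every gene.

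In knock-down tumours most of these genes had slightly lower means, and none passed the test. Over all genes tested, edgeR called 49 at an adjusted p below 0.05, which is 0.297% of them, and 0 of the 29 members were among these. By limma-voom 0 were called, where 0.339% of all genes were. DESeq2 called 1 member, PMVK, where it called 2.12% of all genes. The groups of libraries overlapped for each of the 29, while 1.22% of all genes had groups that did not overlap. At an unadjusted edgeR p below 0.05, 1 member was higher, against 7.45% of all genes tested, and 4 were lower, against 5.21%. The 1 was PMVK, and the 4 were FDFT1, STARD4, ACLY and ACACA. Fold changes were negative for 21 of the 29, with a median log2 fold change of −0.13, where 47.59% of all genes were negative and their median was 0.01. The largest estimates in either direction were 0.49 for PMVK and −0.43 for FASN.

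The sterol branch held 15 negative values among 21 genes, with a median log2 fold change of −0.12 and a range from −0.41 to 0.49. The fatty acid branch held 6 negative values among 8, with a median of −0.22 and a range from −0.43 to 0.14. No test of the difference between the branches was made. Without control 6, knockdown 4 and knockdown 5 the counts of negative values were 17 of 21 and 7 of 8, and the medians −0.11 and −0.22. The sterol median depended on single libraries, at −0.21 without control 6, −0.18 without knockdown 3, −0.07 without control 1 and −0.07 without knockdown 5. It was −0.06 when libraries of the same title number were summed. The fatty acid median stayed between −0.27 and −0.19 when each library was left out in turn.

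**Figure D2:**
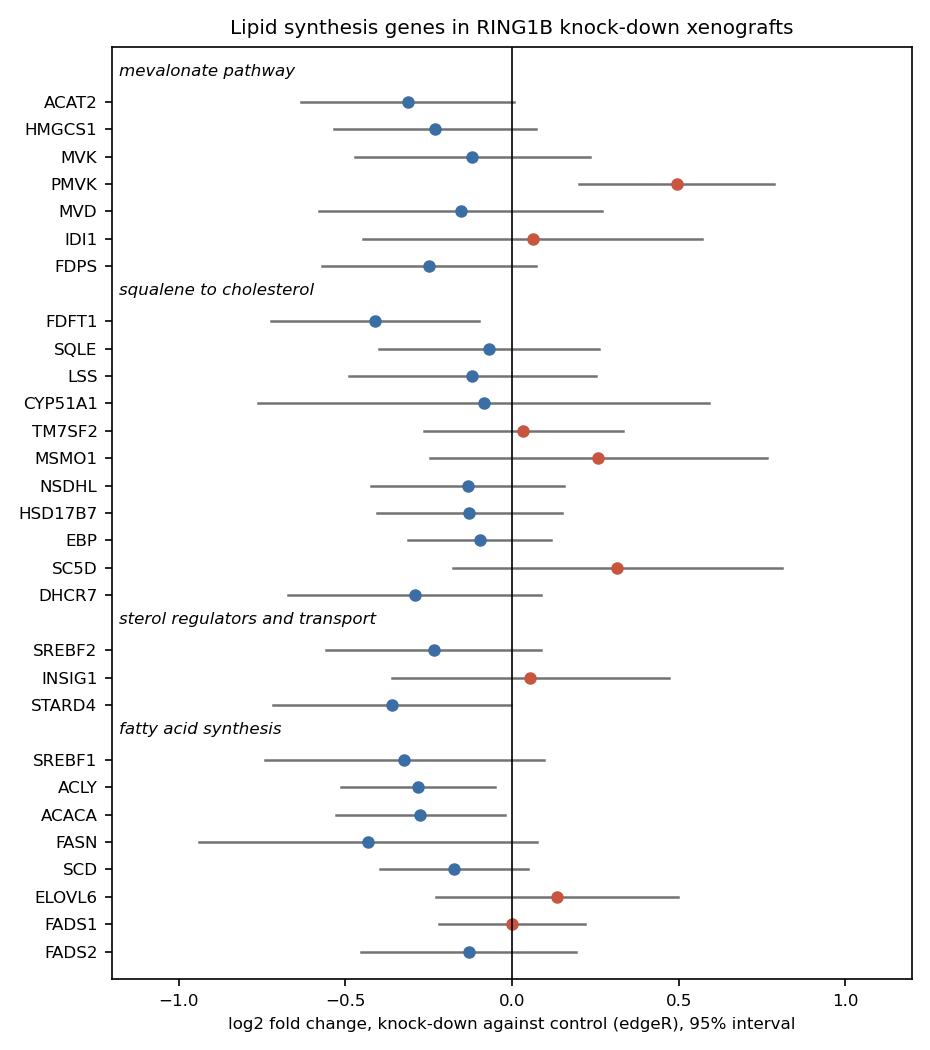
Log2 fold change of knock-down against control for the 29 genes, by step of the pathway; points are edgeR estimates and lines 95% intervals. The intervals of PMVK on the right and of FDFT1, STARD4, ACLY and ACACA on the left leave out 0, and no gene has an adjusted p below 0.05.

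The mevalonate pathway builds the 5-carbon isoprenoid units and joins them to farnesyl diphosphate. Of its 7 genes, 5 had negative values and the median log2 fold change was −0.15. PMVK, the phosphomevalonate kinase (chr1:154924734-154936991, minus strand, hg38), had a positive value. Its controls were at 55.2, 66.7 and 81.7 CPM as the lowest, median and highest, and its knock-down libraries at 62.9, 102.5 and 105.7. The groups overlapped through knockdown 5 alone, since the other 5 knock-down libraries, from 84.2 CPM upward, lay above every control. The means were 66.5 ± 9.68 and 93.6 ± 16.99 CPM, with a log2 fold change of 0.49 (95% interval 0.20 to 0.79, edgeR adjusted p = 0.163), and DESeq2 gave an adjusted p of 0.0472. Without knockdown 5 the edgeR adjusted p was 0.0445 at a log2 fold change of 0.59, and over all alternatives it ran from 0.0445 to 0.383.

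The other genes of this segment lay between −0.31 and 0.06. ACAT2, the cytosolic thiolase that starts the pathway, was at 171 to 295 CPM in control and 129 to 236 in knock-down libraries, with a log2 fold change of −0.31 (edgeR adjusted p = 0.405). HMGCS1, the HMG-CoA synthase, was at 169 to 254 and 129.7 to 226 CPM, a log2 fold change of −0.23 (0.522). FDPS, the farnesyl diphosphate synthase, was at 161.5 to 251 and 114 to 222 CPM, a log2 fold change of −0.25 (0.518), or −0.15 without knockdown 5. For ACAT2, HMGCS1 and FDPS, 2 knock-down libraries each were below every control and none was above every control. The mevalonate kinase MVK had a log2 fold change of −0.12 and the decarboxylase MVD of −0.15, with intervals of −0.47 to 0.23 and −0.58 to 0.27 that span 0 widely. Without control 6 they were −0.22 and −0.25, and without knockdown 5 both were −0.04. Leaving out control 1, control 4 or knockdown 3 also moved both by over 1.5 times, within −0.29 to −0.05, and leaving out control 3 moved MVK to −0.18. IDI1, the isomerase of isopentenyl diphosphate, was at 0.06 (interval −0.45 to 0.57), and its knock-down libraries ran from 102.6 CPM in knockdown 6 to 270.0 in knockdown 2. Its sign turned when single libraries were left out, so no direction can be given for it.

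From squalene to cholesterol, 8 of 11 genes had negative values with a median log2 fold change of −0.10. FDFT1, the squalene synthase that commits farnesyl diphosphate to sterols, had the lowest value of the sterol branch. Its controls were at 281, 391 and 464 CPM as the lowest, median and highest, and its knock-down libraries at 218, 297 and 362. All 6 knock-down libraries were below the control median and 2 of them, knockdown 1 and knockdown 4, below every control, while the lowest control was control 6. The means were 389 ± 70.8 and 292 ± 55.3 CPM, a log2 fold change of −0.41 (interval −0.72 to −0.10, edgeR adjusted p = 0.266), and DESeq2 gave an adjusted p of 0.135.

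SQLE, at the next step, differed little: its log2 fold change was −0.07 with an interval of −0.40 to 0.26, and knockdown 2 at 958 CPM was above every control while 3 knock-down libraries were below every control. DHCR7, which reduces 7-dehydrocholesterol to cholesterol, was at 93.5 to 208 CPM in control and 91.2 to 165 in knock-down libraries, a log2 fold change of −0.29 (edgeR adjusted p = 0.521), or −0.19 without control 1. For LSS (lanosterol synthase), NSDHL, HSD17B7 and EBP, enzymes that form and remodel the sterol ring system, the log2 fold changes were −0.12, −0.13, −0.13 and −0.10. That of LSS was −0.21 without control 6 and −0.03 without knockdown 5, and the 4 genes ranged from −0.26 to −0.03 over the fits that left out 1 library each. The interval of EBP, −0.31 to 0.12, was the narrowest of the sterol branch. TM7SF2, a sterol reductase, was at 0.03 (interval −0.26 to 0.33), and CYP51A1 at −0.09 (interval −0.76 to 0.59).

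The demethylation enzyme MSMO1 and the desaturase SC5D had positive values with a very wide spread. MSMO1 was at 57.5, 80.6 and 91.1 CPM as the lowest, median and highest control and at 48.6, 78.8 and 155 in knock-down libraries. Only knockdown 2 and knockdown 5 were above every control, and knockdown 6 was below every control. The log2 fold change was 0.26 (interval −0.25 to 0.76, edgeR adjusted p = 0.682) and 0.05 without knockdown 5. SC5D was at 24.1, 29.7 and 45.2 CPM in control and at 19.5, 37.7 and 57.0 in knock-down libraries, in which knockdown 2 and knockdown 5 were again highest and knockdown 6 lowest. Its log2 fold change was 0.32 (interval −0.18 to 0.81, edgeR adjusted p = 0.598), and 0.18 without knockdown 5 and 0.20 without knockdown 2. For MSMO1 it was 0.14 without knockdown 2.

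Among the regulators and the sterol carrier, SREBF2, the gene of SREBP-2, was at 229, 392 and 481 CPM as the lowest, median and highest control and at 246, 330.1 and 375 in knock-down libraries. Every knock-down library was below the control median, yet the lowest of all 12 was control 6. The log2 fold change was −0.24 (interval −0.56 to 0.09, edgeR adjusted p = 0.539) and −0.34 without control 6 (0.157). INSIG1, which holds SREBPs in the endoplasmic reticulum and is itself an SREBP target, was at 73.6 to 96.3 CPM in control and 50.1 to 118 in knock-down libraries. Its knock-down libraries spread to both sides of the controls, with 2 above and 2 below all of them, and the log2 fold change was 0.06 (interval −0.36 to 0.47).

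STARD4 (chr5:111496033-111512590, minus strand), which carries cholesterol between membranes, had controls at 39.7, 47.2 and 52.6 CPM and knock-down libraries at 26.7, 32.9 and 48.9 as the lowest, median and highest. Knockdown 1, 4 and 6 lay together between 26.7 and 27.3 CPM and knockdown 3 at 38.5, all below every control, while knockdown 2 and knockdown 5, at 48.6 and 48.9, lay inside the control range. The log2 fold change was −0.36 (interval −0.72 to −0.0017, edgeR adjusted p = 0.392). After a correction for GC content, added after seeing the data and described below with the spread between libraries, it was −0.46 with an adjusted p of 0.0753.

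In the fatty acid branch, SREBF1, the gene of SREBP-1, was at 39.5, 72.0 and 86.2 CPM as the lowest, median and highest control and at 35.3, 52.7 and 81.0 in knock-down libraries. Knockdown 3 at 81.0 CPM was the 1 knock-down library above the control median, and the log2 fold change was −0.32 (interval −0.74 to 0.09, edgeR adjusted p = 0.519), −0.44 without control 6 and −0.22 without knockdown 5. ACLY (chr17:41866908-41930542, minus strand), at the entry of the branch, was at 388, 453 and 481 CPM in control and at 268.5, 374 and 414 in knock-down libraries. Of its 6 knock-down libraries 4 were below every control, and knockdown 3 and knockdown 6 were within the control range. The means were 443 ± 36.0 and 364 ± 53.6 CPM, a log2 fold change of −0.28 (interval −0.51 to −0.05, edgeR adjusted p = 0.298).

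ACACA (chr17:37084988-37406818, minus strand), the acetyl-CoA carboxylase that makes malonyl-CoA, was at 94.5, 121 and 142 CPM in control and at 78.4, 104 and 114 in knock-down libraries. All 6 knock-down libraries were below the control median and 2 below every control. The log2 fold change was −0.28 (interval −0.53 to −0.02, edgeR adjusted p = 0.354). FASN (chr17:82078333-82098332, minus strand) had the lowest fold change of all 29 genes, with controls at 586, 1296 and 1608 CPM and knock-down libraries at 449, 942 and 1212. Again all 6 knock-down libraries were below the control median, but control 6 lay far below the other controls, which began at 1228 CPM. The log2 fold change was −0.43 (interval −0.94 to 0.08, edgeR adjusted p = 0.472), −0.57 without control 6 (0.162) and −0.29 without knockdown 5 (0.662).

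For the desaturases and the elongase of the branch, fold changes were smaller in size than for FASN. SCD was at 740.4 to 957 CPM in control and 605 to 844 in knock-down libraries, a log2 fold change of −0.17 (interval −0.40 to 0.05, edgeR adjusted p = 0.516). The desaturases of polyunsaturated fatty acids are neighbours on chromosome 11: FADS1 had a log2 fold change of 0.00 with an interval of −0.22 to 0.22, and FADS2 one of −0.13 with an interval of −0.45 to 0.19. FADS2 was at −0.22 without control 6, −0.20 without knockdown 3 and −0.04 without knockdown 5. ELOVL6, the elongase of palmitate, was at 0.14 (interval −0.23 to 0.50), with a range of 0.05 to 0.23 when single libraries were left out, the lowest without knockdown 5 and the highest without control 6. For FADS1, means of 491 ± 37.5 and 491 ± 68.1 CPM differed by less than the spread in either group.

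**Figure D3:**
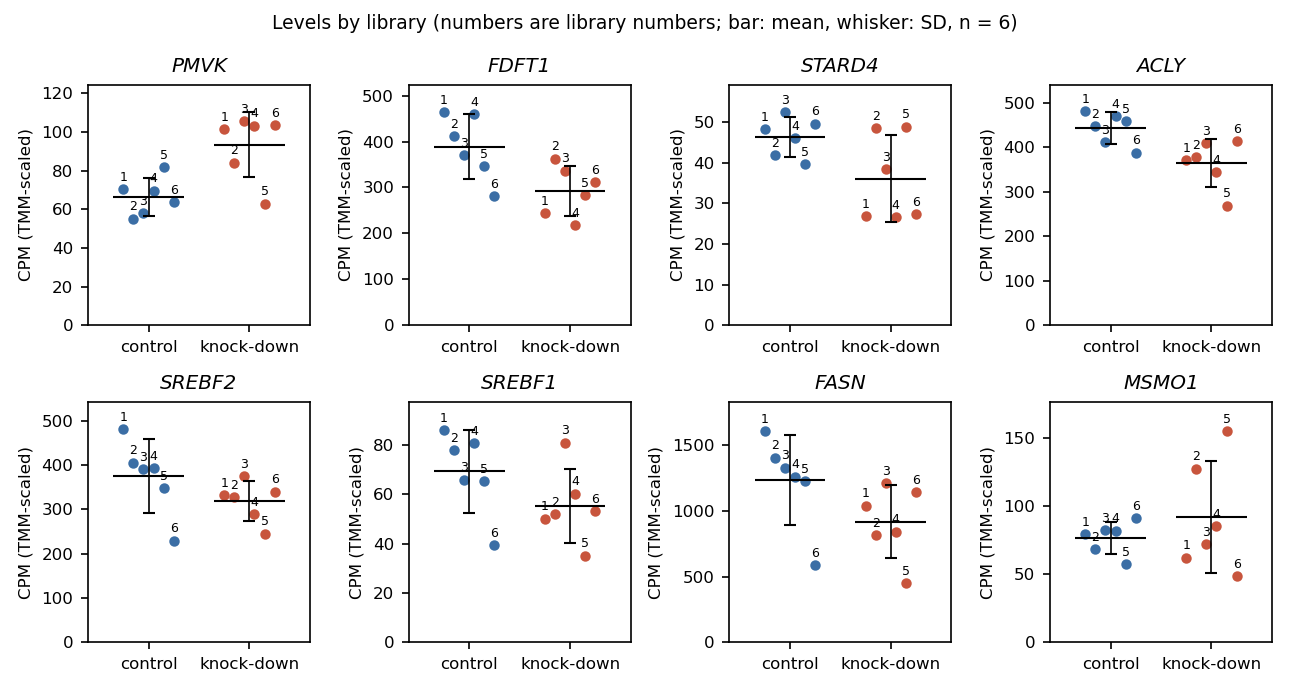
CPM in each library, labelled by its number, for PMVK, FDFT1, STARD4, ACLY, SREBF2, SREBF1, FASN and MSMO1; the long bar is the mean and the whisker 1 SD over 6 libraries, and each axis starts at 0. Control 6 and knockdown 5 are the lowest libraries of their groups for SREBF2, SREBF1 and FASN, and among the highest for MSMO1, at 91.1 and 155 CPM.

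The 29 genes did not vary from library to library as 1 block. Within groups, after subtraction of each group's mean log2 CPM, FASN was high where SREBF2 (r = 0.93), FADS2 (0.91), CYP51A1 (0.90), FDPS (0.89) and SREBF1 (0.89) were high, over 12 libraries. It was low where ELOVL6 (−0.81), SC5D (−0.77), IDI1 (−0.73) and MSMO1 (−0.68) were high. MSMO1 in turn moved with SC5D (0.92), INSIG1 (0.87), ELOVL6 (0.85) and STARD4 (0.84), so each set held genes of both branches. The median r was 0.29 over 210 pairs within the sterol branch, 0.13 over 28 pairs within the fatty acid branch and 0.32 over 168 pairs across the branches, against −0.0023 over pairs drawn from every 17th gene tested. These are descriptions without a p, since all pairs share the same libraries and, in the same libraries, their depth and base composition. The deviation of FASN from its group mean was −1.01 in control 6 and −0.96 in knockdown 5. In the other libraries it lay between −0.10 and 0.47. The r values of FASN thus rest largely on control 6 and knockdown 5, and r without these libraries was not computed.

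The sets mostly followed the base composition of the transcripts. The GC content of the longest transcript ran from 34.24% for STARD4, 38.12% for MSMO1 and 38.64% for SC5D to 62.84% for SREBF1 and 65.34% for FASN. The 15 genes lowest in control 6 among controls had a median GC of 57.1%, and the 5 highest there, IDI1, MSMO1, HSD17B7, SC5D and ELOVL6, had one of 41.07%. For knockdown 5 the 13 lowest genes had a median of 58.29% and the 4 highest, MSMO1, SC5D, STARD4 and ELOVL6, one of 38.38%. CYP51A1, at 41.53%, was an exception, being lowest in both. As given above, most of its exonic bases are shared with other genes. The GC of its unshared bases was not computed, and a part of the sharing in this exception was not tested. TM7SF2, at 64.18%, was an exception too, being lowest in neither, and had an r of 0.07 with FASN. Over the 29 genes, the correlation of GC with a library's deviation from its group mean was −0.67 in control 6, −0.51 in control 3, −0.51 in knockdown 2 and −0.69 in knockdown 5. In the other 8 libraries it was positive, from 0.13 to 0.60. Deviations from a group mean cancel out within the group, so negative values in some libraries entail positive ones in others. The positive values are thus no separate result. Over all genes tested the same correlation was −0.39 in control 6, −0.21 in control 3, −0.39 in knockdown 2 and −0.45 in knockdown 5. The pattern was thus not limited to lipid genes. Between GC and log2 fold change, r was −0.23 over the 29 genes and 0.04 over all genes tested. Whether GC had a part in the fold changes was not tested.

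**Figure D4:**
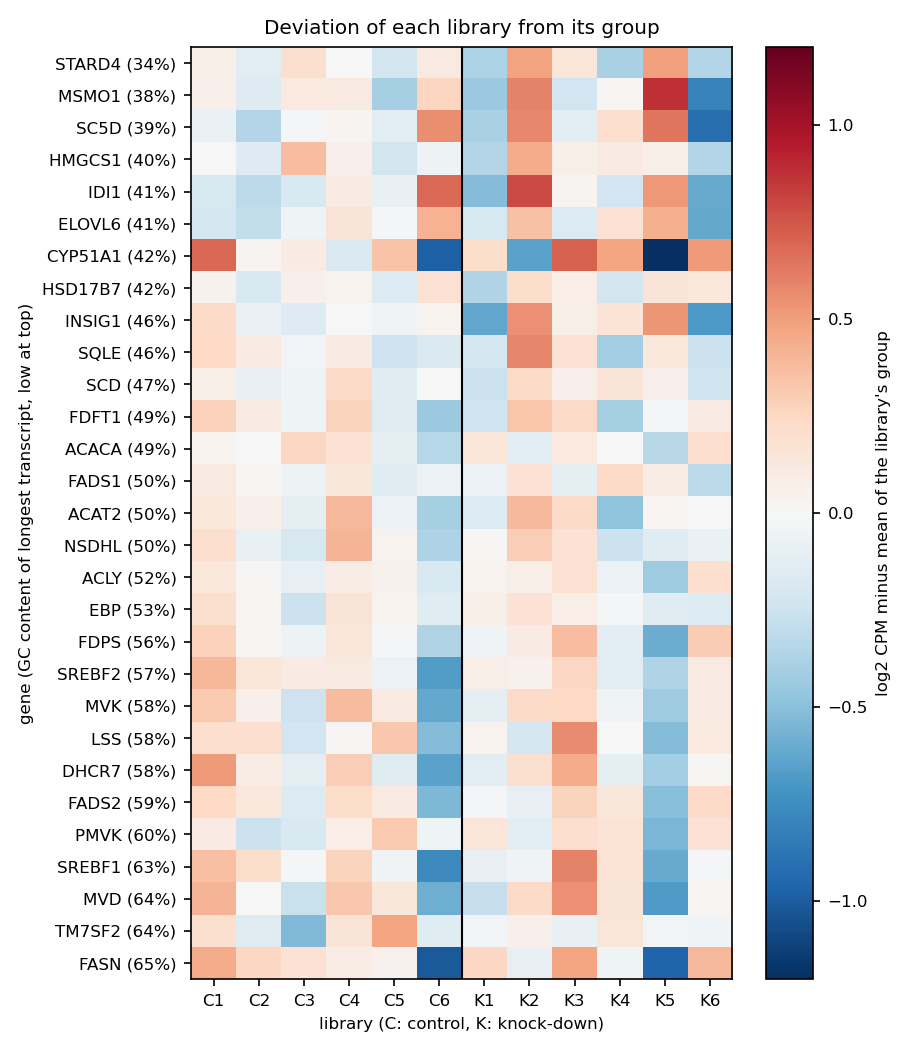
Log2 CPM of each library (C1 to C6 control, K1 to K6 knock-down) minus the mean of its group for the 29 genes, which are ordered by GC content from low at the top to high at the bottom. C6, K5 and in part K2 are red at the top and blue at the bottom. CYP51A1, with a GC of 41.53%, is an exception and is blue in C6 and K5. Most of its exonic bases are shared with other genes.

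**Figure D5:**
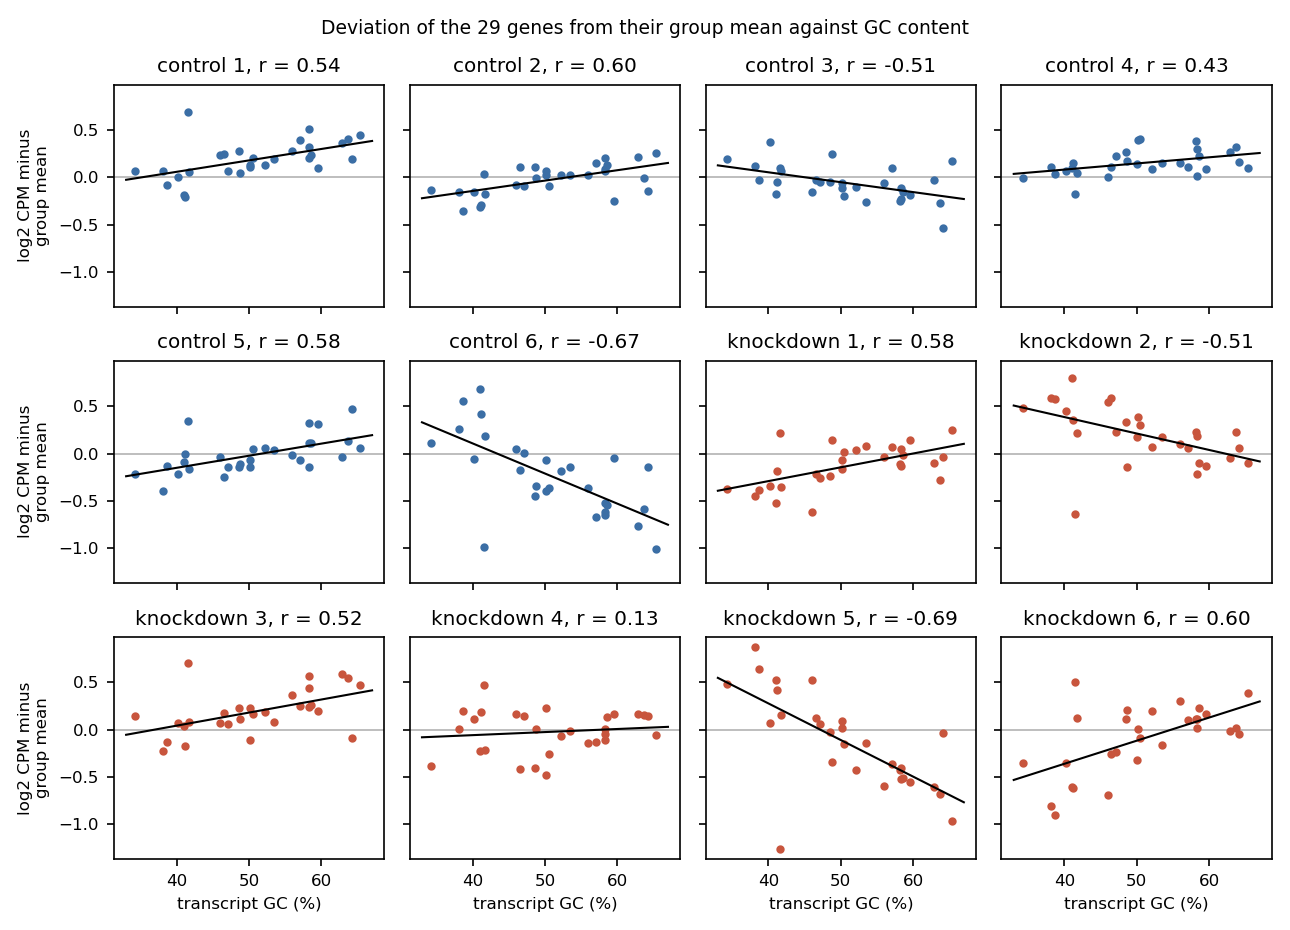
Deviation of the 29 genes from their group mean (log2 CPM) against transcript GC in percent, 1 panel for each library, with a least-squares line and Pearson's r. The slope is negative in control 3, control 6, knockdown 2 and knockdown 5, with r from −0.69 to −0.51, and positive in the other 8 libraries. Deviations cancel out within each group, so negative slopes in some libraries entail positive ones in others.

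A correction that removes each library's smooth trend with GC over all genes was added after seeing the data. It lowered the median spread of the 29 genes and left the branch medians of their fold changes close to where they were. Their median within-group SD went from 0.30 to 0.25 on the log2 scale, and it was smaller for 20 of 29. That of all genes went from 0.30 to 0.26. With the correction the median r within the sterol branch was 0.44 and within the fatty acid branch 0.51. The edgeR count over all genes was 103 in place of 49, still with 0 of the 29 genes. PMVK had an adjusted p of 0.0545 and STARD4 of 0.0753, and the branch medians were −0.13 and −0.22. Some single fold changes moved more. That of STARD4 went from −0.36 to −0.46, of FASN from −0.43 to −0.51 and of MSMO1 from 0.26 to 0.19.

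The other genes of the pathway were taken as 58 genes in 4 lists. Of these, 53 passed the filter on low counts, and IDI2, CH25H, THRSP, OLAH and ABCG1 did not. edgeR called 0 of the 53, limma-voom 0 and DESeq2 2, where they called 0.297%, 0.339% and 2.12% of all genes. At an unadjusted edgeR p below 0.05 there were 3 higher and 2 lower, against 7.45% and 5.21% of all genes. Fold changes were negative for 30 of 53, with a median of −0.02.

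Both DESeq2 calls lay in the list of SREBP processing and sterol-regulated degradation, where 7 of 11 values were negative. MBTPS1, the site-1 protease that makes the first cut in SREBPs, was at 95.7, 123.5 and 147 CPM as the lowest, median and highest control and at 70.5, 85.8 and 116 in knock-down libraries. Of the knock-down libraries 5 were below every control, and the log2 fold change was −0.48 (edgeR adjusted p = 0.148, DESeq2 adjusted p = 0.0259). LPIN1, a phosphatidate phosphatase that also restrains SREBPs in the nucleus, was at 13.4, 16.9 and 21.1 CPM in control and at 17.9, 25.9 and 31.4 in knock-down libraries. Here 5 knock-down libraries were above every control, and the log2 fold change was 0.59 (edgeR adjusted p = 0.124, DESeq2 adjusted p = 0.0209). MBTPS2, the site-2 protease, had a log2 fold change of −0.27 (edgeR adjusted p = 0.404), and SCAP, which escorts SREBPs to the Golgi and is named here outside the rule for named genes, one of −0.24 (0.623).

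Among other isoprenoid and sterol enzymes 7 of 8 values were positive. GGPS1, the geranylgeranyl diphosphate synthase, had a log2 fold change of 0.49 (edgeR adjusted p = 0.464), with means of 28.9 ± 12.3 CPM in control and 40.8 ± 15.7 in knock-down libraries. Control 6 was at 54.0 CPM and the next control at 25.9, and without control 6 the log2 fold change of GGPS1 was 0.77 (edgeR adjusted p = 0.123). DHDDS, of dolichol synthesis, was at −0.20 and TMEM97 at 0.19, or 0.10 without knockdown 2. In other fatty acid synthesis, elongation and activation 14 of 21 values were negative. The elongase ELOVL7, scarce at 1.05 ± 0.217 CPM in control and 0.584 ± 0.190 in knock-down libraries, had a log2 fold change of −0.84 (edgeR adjusted p = 0.216), while HSD17B12 and TECR, which act in the elongation cycle, were at 0.30 and 0.21, or 0.17 without knockdown 4 and 0.13 without control 6. In sterol uptake, storage and efflux 8 of 13 values were negative. NPC2, which hands cholesterol out of lysosomes, was at 0.50 (edgeR adjusted p = 0.242), MYLIP, a ubiquitin ligase of lipoprotein receptors, at 0.32 (0.301) and LIPA, the lysosomal acid lipase, at −0.21 (0.418).

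Among the genes that varied most like the sterol branch within groups were APELA, ACSS2, RANGRF, PLCG2, CCDC12 and ZNF425, all within the 8 highest of 12396 other protein-coding genes with a mean of at least 1 CPM. Pearson's r with the mean of the 21 standardised sterol genes over 12 libraries was 0.87 for APELA and 0.85 for ACSS2, the acetyl-CoA synthetase, and the lowest of these was 0.84 for ZNF425. Spearman's rho for the same 3 genes was 0.64, 0.80 and 0.90. The median r of all candidates was 0.03. With each library left out in turn, r of these genes stayed between 0.80 and 0.93. The genes were picked for a high r in these same libraries, so both values follow from the choice. They are no support for a link with the sterol branch.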

How the data were processed

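Counts per gene were deposited by the authors as 1 table of raw reads, before any scaling. The submitters' processing notes name STAR 2.6.0a, FastQC, featureCounts, limma 3.40.2, R 3.6.0 and the build hg38, without their roles. The strand setting, multi-mapping reads and removal of host reads: not given in the sources used here. Libraries were TruSeq stranded mRNA, per the labels' protocols. The table's gene names and lengths are those of GENCODE release 29, used here for coordinates and GC content.

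Samples were grouped by the genotype label and numbered in accession order. No library repeated another (lowest chi-square per degree of freedom 12.05). In R 4.3.3, filterByExpr left 16519 genes holding at least 99.72% of counts, and edgeR 4.0.16 compared knock-down with control by its quasi-likelihood F test with TMM factors (0.921 to 1.04) and no covariate. P-values were adjusted over all genes tested (Benjamini-Hochberg), with a threshold of 0.05. Log2 CPM has a prior count of 2. Scripts were tested on simulated data.

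Alternatives were RLE factors, library size alone, no filter, DESeq2 1.42.0, limma-voom (limma 3.58.1), title letter as covariate, libraries summed by title number, each library left out, and 3 left out together. A loess of each library's deviation on GC (span 0.3) was added after seeing the data. Named genes were all 29 members, RNF2, called genes of each pathway list or otherwise the 3 with the smallest p, and the 8 genes most correlated with the sterol branch, of which 2 are not reported here. The members and lists were chosen with earlier results of these data known. Promoter sequences came from RefSeq (GRCh38.p14).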

Additional observations from a re-analysis of the deposited data

Results flagged for a closer look

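Of 84 groups of 6 libraries looked at, 1 for each group and each member, RNF2 or named gene of the pathway lists, 6 held a library whose gap to its nearest neighbour was a larger share of the whole range than Dixon's 95% critical value allows, and all 6 were control 6. Chance flags about 1 in 20 groups. Among the members, control 6 was high for IDI1 at 248.6 CPM, where the next control was at 165.9, and for SC5D at 45.2 CPM, next 31.4. It was low for FASN at 586 CPM, where the next control was at 1228. Among the other pathway genes it was high for GGPS1 at 54.0 CPM (next 25.9) and HSD17B12 at 65.3 CPM (next 46.7), and low for DHDDS at 38.5 CPM (next 51.2). Transcript GC was 41.07% for IDI1, 38.64% for SC5D and 65.34% for FASN, and mitochondrially encoded genes took 14.45% of this library's counts. The part of either in these values was not tested.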

How the results depend on the processing

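The count of 49 genes called over the whole table moved most: 351 by DESeq2, 28 with the title letter as covariate, 7 with libraries summed by title number, 108 without control 6, knockdown 4 and knockdown 5, 103 with the GC correction, and 16 to 79 with each library left out in turn. Called sterol members were 0 except for 1 by DESeq2 and 0 to 1 with a library left out (PMVK without knockdown 5), and called genes of the other pathway lists were 0 except for 2 by DESeq2. No fatty acid member was called under any alternative run. RNF2 was called under all of them. Signs turned for members near 0, and none of these was called. IDI1 was at −0.067 with the title letter. TM7SF2 was at −0.0325 without the 3 libraries and −0.01 with the GC correction. INSIG1 was at −0.0217 by limma-voom, −0.0511 with the title letter and −0.11 without the 3 libraries. FADS1 was at −0.0089 with RLE factors and by DESeq2, −0.0181 with library size alone, −0.0126 with no filter, −0.0088 by limma-voom, −0.0362 with the title letter and −0.0996 without the 3 libraries. With each library left out the ranges were −0.13 to 0.23 for IDI1, −0.21 to 0.0068 for SQLE, −0.242 to 0.0854 for CYP51A1, −0.0645 to 0.126 for TM7SF2, −0.059 to 0.159 for INSIG1 and −0.0470 to 0.0477 for FADS1. The cause of these changes was not tested. Negative members numbered 20 to 24 of 29 over the leave-one-out fits. No paired analysis was possible because the groups share no title number. The groups overlapped for every member. The lowest value of any member in any library was 3.72 CPM (CYP51A1 in knockdown 5) and 3 counts corresponded to at most 0.126 CPM.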
